A study of Triticum aestivum with 96 samples.

Results

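Senescent flag leaves of bread wheat were compared between the second and the first of the 2 circadian cycles sampled in continuous light, gene by gene. The 24 libraries from ZT69 to ZT91 were set against the 24 libraries from ZT45 to ZT67, and each time point was paired with the time point 24 h earlier. These are 48 of the 96 libraries of the series, and the other 48 come from mature flag leaves. ZT is Zeitgeber time, the hours since the dawn at which the light was left on. The series is an RNA-seq time course of whole flag leaves of Triticum aestivum cultivar Mace, and its title links a circadian sub-network and EARLY FLOWERING 3 to when leaves senesce and to the nutrients of the grain.

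Both stages were grown in 1 growth room with 12 h of light before ZT0 and were kept at 20 °C in continuous light after it. Mature plants were at ear emergence, and the flag leaves of the senescent plants had begun to lose chlorophyll. The labels name no further treatment, and none of the libraries comes from leaves kept in light and dark cycles. Leaves were sampled every 2 h, with 2 libraries per time point and stage, each from the pooled RNA of 2 leaves. Mature and senescent plants were sown 28 days apart, so stage and sowing batch cannot be told apart. Within a stage, the later cycle is also the later harvest of leaves that had been longer in continuous light, so cycle, leaf age and time in continuous light cannot be told apart either. Every time point came from different leaves, and p-values measure the spread between pooled libraries.

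The plant circadian clock is a set of transcriptional repressors and activators that take turns through the day and that keep running in continuous light. Its outputs time photosynthesis, metabolism and hormone responses, and EARLY FLOWERING 3 belongs to the evening complex that represses other clock genes around dusk. In cereals the flag leaf is the uppermost leaf, and during its senescence chlorophyll is lost while nitrogen and minerals are moved to the grain.

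Estimated reads per library ranged from 6002909 to 9487454 in the first cycle and from 4789265 to 11831490 in the second. The share of the summed values held by the 100 most abundant genes had a median of 13.9% in the first cycle (range 11.03% to 17.6%) and of 12.2% in the second (range 8.98% to 15.0%), and its part in the results below was not tested. The 2 libraries of ZT45 differed most from each other, with a standard deviation between replicates of 0.473 on the log2 scale across genes, where the other time points of both cycles lay between 0.278 and 0.359. The counts for level, amplitude, peak time and the stage difference in amplitude are therefore also given without ZT45 and its partner ZT69. Other counts below include these libraries. Genes are named by their identifiers in the Mace annotation, whose first characters after the cultivar code give the chromosome. None of the identifiers was found in the reference gene table, so no gene name or role is given, and the labelled stage was not checked against marker genes. Wheat is a hexaploid with A, B and D copies of most genes, and how reads shared by such copies were counted is not given in the sources used here, so the split between near-identical copies is uncertain. In whole leaves, fewer cells of a type and less RNA per cell cannot be told apart.

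With the deposited scaling, more genes were lower than higher in the second cycle of senescent leaves, a split that turned when libraries were brought to an equal sum of values. Of 41715 genes tested with limma, 6417 (15.4%) differed in level with time of day held fixed, and 4263 of them (10.2% of the genes tested) were lower and 2154 (5.16%) higher. Most differences were small. The median was -0.32 on the log2 scale among the lower genes and 0.27 among the higher genes, against 0.00 over all genes tested. Only 76 called genes (0.182%) differed by at least 1 on the log2 scale, 56 of them lower and 20 higher. With equal sums, 2758 genes were lower and 6619 higher, with a median of 0.08 over all genes. Without ZT45 and ZT69, 3908 genes were lower and 1953 higher. The number of higher genes dropped to 1303 without ZT47 and ZT71 and to 1430 without ZT49 and ZT73.

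TraesMAC3D03G01813080 on chromosome 3D rose from a mean scaled count of 45 ± 36 (SD, n = 24) to 115 ± 66.7 (SD, n = 24). Its libraries ran from 9.90 through a median of 32.4 to 155 in the first cycle, and from 17.7 through 134 to 243 in the second. The cycles overlapped, and 6 second-cycle libraries lay above every first-cycle library. The log2 difference was 1.29 (SE 0.187, limma adjusted p 3.71e-06), positive at 11 of 12 times of day and in both replicate numbers (1.51 and 1.07), with an exact sign-flip p of 0.00146. The difference was largest at 21 h after subjective dawn, where the mean went from 31.0 to 224, and it was -0.31 at 13 h. In order of sampling, the first-cycle means reached at most 60.6 before ZT65, and were 105 at ZT65 and 102 at ZT67. The second cycle started at 224 at ZT69 and was still at 110 at ZT77. It then fell to 26.4 at ZT85 and stood at 141 at ZT87. The high values at the end of the first cycle thus ran on into the start of the second.

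TraesMAC4A03G02217310 on chromosome 4A rose from 167 ± 118 (SD, n = 24) to 451 ± 407 (SD, n = 24) in scaled counts. The first cycle ran from 53.6 through a median of 112 to 572, and the second from 73.5 through 322 to 1740. The ranges overlapped, with 6 second-cycle libraries above all of the first cycle. Its log2 difference of 1.13 (SE 0.205, limma adjusted p 8.95e-05) was positive at 10 of 12 times of day, and the exact sign-flip p was 0.00244. It was largest at 15 h, where the mean went from 185 to 805, and nearly as large at 17 h, where it went from 316 to 1300. With the times of day from ZT45 to ZT53 left out, the difference was 0.84 and no longer called (adjusted p 0.0705).

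TraesMAC6D03G03786050 on chromosome 6D had the largest fall of all genes tested. Its scaled counts ran from 18.4 through a median of 108 to 425 in the first cycle and from 0 through 14.7 to 104 in the second. In the second cycle 13 libraries lay below the lowest library of the first, although the ranges overlapped. The mean went from 140 ± 114 (SD, n = 24) to 26.1 ± 31.6 (SD, n = 24), a log2 difference of -2.87 (SE 0.275, limma adjusted p 6.23e-09) that was negative at 12 of 12 times of day. The exact sign-flip p was 0.000488, the smallest that 4096 arrangements can give. The fall was smallest at 7 h, from 80.9 to 36.8, and both libraries of ZT75 were listed at 0 against a mean of 110 at ZT51. From 15 h to 19 h the second-cycle means were 2.42, 1.23 and 1.88, against 104, 36.4 and 22.8 in the first cycle.

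TraesMAC2A03G00597180 on chromosome 2A was more abundant and fell from 959 ± 466 (SD, n = 24) to 439 ± 190 (SD, n = 24). Its libraries ran from 314 through a median of 923 to 2080 in the first cycle and from 140 through 458 to 917 in the second. The highest second-cycle library was below the median of the first cycle, and 6 lay below its lowest. The log2 difference was -1.11 (SE 0.122, limma adjusted p 1.19e-07), negative at 11 of 12 times of day, with an exact sign-flip p of 0.000977. The exception was 7 h, where the means were 354 and 409. The plot of every library over the day shows both cycles of these 4 genes.

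**Figure D1:**
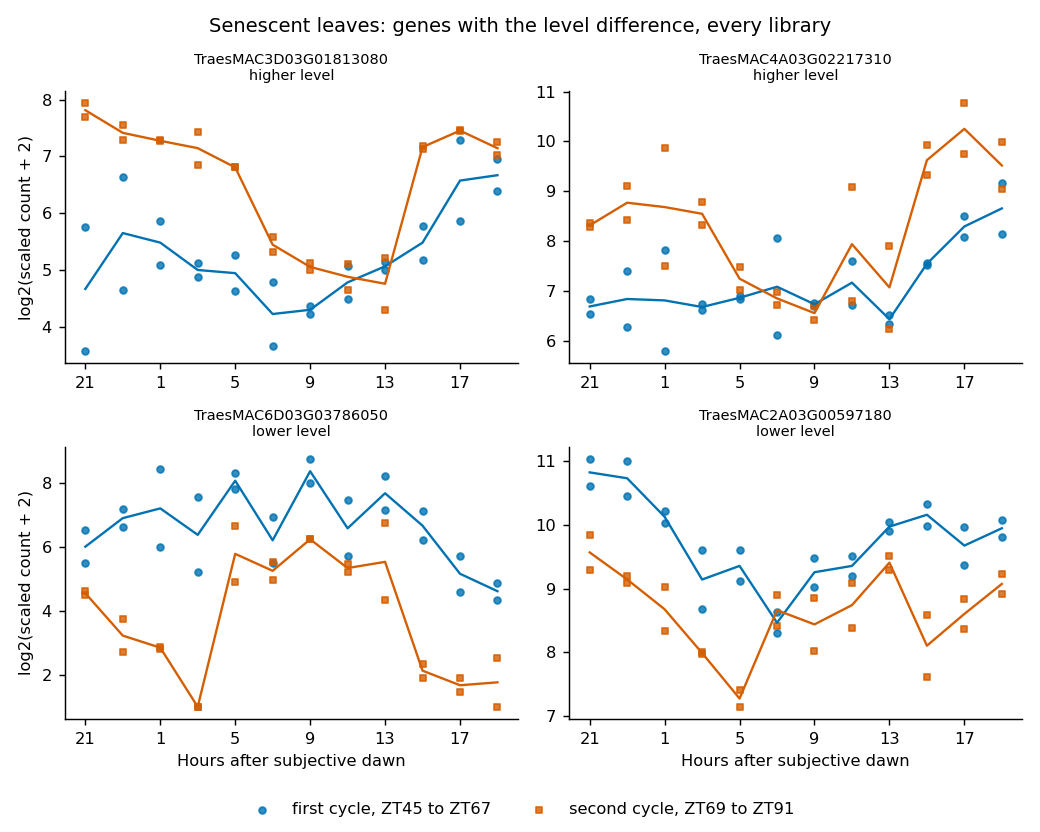
Scaled counts of the 4 genes named for level, as log2(scaled count + 2), in each senescent library against the hours after subjective dawn; lines join the means of the 2 libraries of a time point. The means of the second cycle of TraesMAC6D03G03786050 lie below those of the first at every time of day, and those of TraesMAC3D03G01813080 lie above at every time of day except 13 h.

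The replicate numbers gave the same direction. Fitted alone, the libraries of replicate number 1 (12 against 12) gave 1017 called genes (2.44%), 832 lower (1.99%) and 185 higher (0.443%), and those of number 2 gave 1882 (4.51%), 1592 lower (3.82%) and 290 higher (0.695%). The lists shared 573 lower genes, 68.9% of the list of number 1 and 36.0% of that of number 2. They shared 44 higher genes, 23.8% and 15.2% of the lists. No gene was called in opposite directions. Of the 832 lower genes of number 1, 829 also had a negative difference in number 2 (99.6%, median -0.42), and of its 185 higher genes 182 had a positive one (98.4%, median 0.36). Over all genes tested the difference was positive for 48.7% in number 2. The interaction of replicate number and cycle was called by limma for 0 genes, with 1113 (2.67%) at an unadjusted p under 0.05. Across 41715 genes the correlation between the differences of the 2 numbers was 0.66 as a description, since genes share libraries.

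The difference between cycles was concentrated in the hours around subjective dawn. Those from 21 h to 5 h were also the first sampled of each cycle. Time of day and order of sampling within a cycle therefore cannot be told apart. Each time of day was tested with 2 against 2 libraries and with the spread of all time points together. The count at 21 h rests on ZT45, whose libraries differed most from each other (SD 0.473), and cannot be given without it. The differences of the 2 replicate numbers had a correlation of 0.27 at 21 h, 0.33 at 23 h, 0.36 at 1 h, 0.35 at 3 h and 0.2 at 5 h. At 21 h 2657 genes were called (6.37%), 1481 lower and 1176 higher. At 23 h there were 2410 (5.78%), 1319 lower and 1091 higher, and at 1 h 1204 (2.89%), 843 lower and 361 higher. At 3 h 1847 genes were called (4.43%), 1437 lower and 410 higher, and at 5 h 1009 (2.42%), of which 946 were lower and 63 higher. From 7 h to 13 h limma called 3 genes in all, each at 7 h (0.00719%) and each lower, although between 1438 and 3188 genes had an unadjusted p under 0.05 at those times. A smaller group returned at 15 h, with 317 lower and 185 higher (1.20% in all), and 17 h gave 8 genes (0.0192%) and 19 h gave 0, with 2106 at an unadjusted p under 0.05. With equal sums of values per library, these hours stood out as well, but the direction turned at all of the dawn hours except 5 h: 2428 genes were higher and 621 lower at 21 h, and 1082 were higher and 711 lower at 3 h. Mature leaves gave 1233 calls (2.92%) at 23 h, 120 (0.284%) at 1 h and 85 (0.201%) at 21 h, as the plot of calls shows. At the other times they gave 2 (0.00474%) at 7 h, 1 each (0.00237%) at 5 h and 13 h, and 0 elsewhere, where limma gave between 1204 and 5495 genes at an unadjusted p under 0.05.

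**Figure D2:**
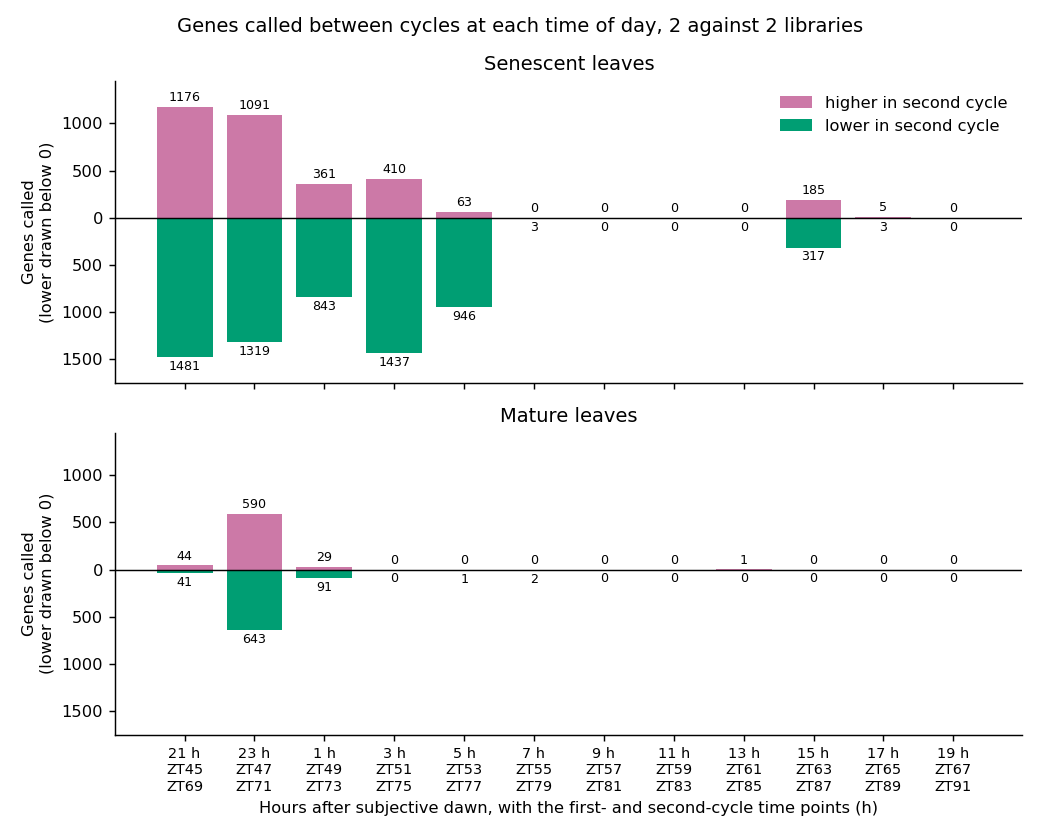
Number of genes called by limma between cycles at each time of day (2 against 2 libraries), higher in the second cycle drawn upwards and lower drawn downwards, for senescent (upper) and mature leaves (lower); the horizontal axis gives hours after subjective dawn with the time points compared. In senescent leaves the calls lie from 21 h to 5 h and at 15 h, and in mature leaves mostly at 23 h.

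The difference varied over the day beyond the spread of replicates for 1428 genes (3.42%, limma F test of cycle by time of day), and for 62 genes (0.147%) in mature leaves. TraesMAC6D03G03742930 on chromosome 6D had the smallest p. At 21 h its mean scaled count went from 11.9 to 142, and at 23 h from 28.9 to 238. At 3 h the cycles stood at 245 and 261 and at 7 h at 135 and 135. The cycles thus differed at the start of its daily rise and met at its peak (limma F 19.7, adjusted p 2.15e-07). TraesMAC3D03G01811210 on chromosome 3D went from 556 to 1960 at 23 h and from 982 to 2140 at 1 h, but from 1950 to 1430 at 3 h, and at 7 h the means were 860 and 892 (limma F 18.3, adjusted p 3.10e-07). The mature libraries were higher at 23 h as well, from 4.45 and 17.1 at ZT47 to 156 and 146 at ZT71 for TraesMAC6D03G03742930. For TraesMAC3D03G01811210 they went from 255 and 284 to 618 and 548. Within senescent leaves the rise of both genes came earlier in the second cycle. Their fitted peaks moved from 4.25 h to 2.48 h and from 2.29 h to 0.979 h after subjective dawn, of which the former was called as a difference in peak time (adjusted p 0.0444) and the latter was not (adjusted p 0.206).

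The hours from 21 h to 5 h were then fitted apart from the later 7 times of day, a split chosen after the counts by time of day were seen. The 5 early times of day alone gave 5027 lower genes (12.1%) and 2632 higher genes (6.31%), with medians of -0.52 and 0.47. In the later 7 times of day, which share no library with them, 3934 of the 5027 lower genes were also negative (78.3%, median -0.11), and 1906 of the 2632 higher genes were positive (72.4%, median 0.07), against 50.1% positive over all genes. The later 7 times of day alone gave 705 lower genes (1.69%) and 198 higher genes (0.475%). Of those 705, 676 were negative in the early times of day as well (95.9%, median -0.43). Few genes were called at every early time of day: 1286 were lower at 2 or more of the 5, 239 at 4 or more and 49 at all 5, while 544 were higher at 2 or more and 1 at all 5. Of the 317 genes lower at 15 h, 199 were also called lower at an early time of day, as were 3871 of all 41715 genes. Of the 185 genes higher at 15 h, 66 were also called higher at an early time of day, as were 2383 of all genes.

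With the deposited scaling, lower genes were most frequent among those that peak in the subjective night, from 12 h to 24 h. A 24 h rhythm was called in 26271 of the 41715 genes (63%) over both cycles together. Among them 13.1% were lower and 6.11% higher in the second cycle, against 5.25% and 3.55% of the other 15444 genes. By the time of the peak, 23.4% of the 6285 genes peaking from 16 h to 20 h were lower and 4.07% higher. From 20 h to 24 h it was 16.8% and 7.16% of 5324 genes, and from 12 h to 16 h 17.6% and 3.65% of 1700 genes. The order was the opposite in the 1880 genes peaking from 0 h to 4 h, of which 13.6% were higher and 9.68% lower, and in the 5858 peaking from 4 h to 8 h, with 7.92% higher and 4.78% lower. From 8 h to 12 h, 3.58% of 5224 genes were higher and 6.28% lower. With equal sums of values per library, the excess of lower genes was kept for peaks from 16 h to 20 h (15.3% lower, 9.79% higher) and from 12 h to 16 h (11.6% and 10.3%), and turned for peaks from 20 h to 24 h (10.6% and 18.9%) and from 8 h to 12 h (3.77% and 14.3%). Without ZT47 and ZT71 the order turned for peaks from 0 h to 4 h, with 7.45% higher and 8.35% lower. These shares describe the fit across all genes and carry no test of their own.

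**Figure D3:**
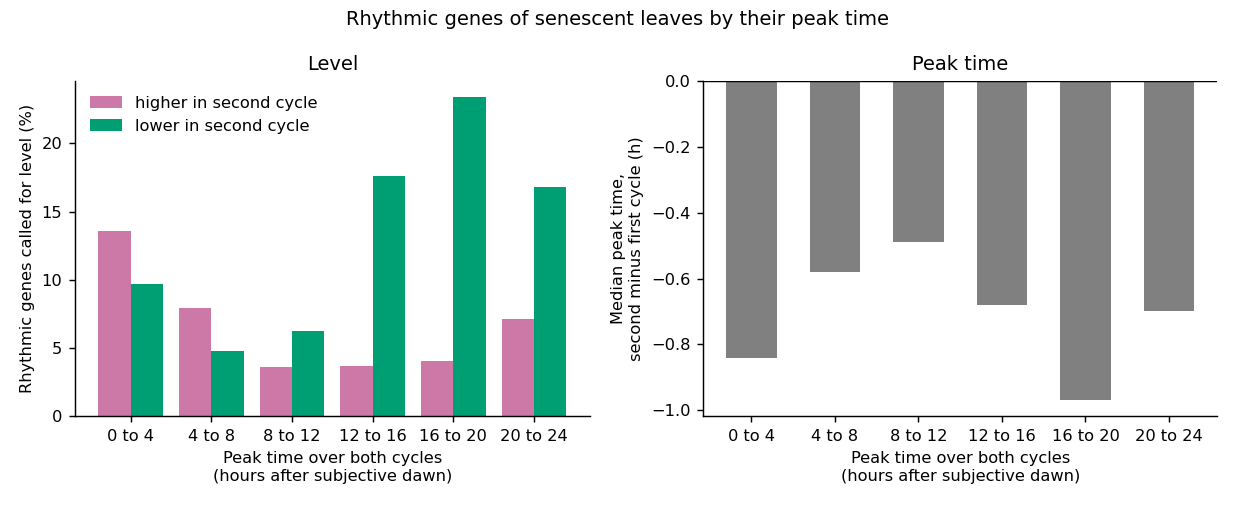
Left, percent of rhythmic genes of senescent leaves called higher or lower in level in the second cycle, by the peak time of both cycles together in bins of 4 h. Right, median difference of the peak time between cycles in hours, second minus first, in the same bins. The lower genes reach 23.4% for peaks from 16 h to 20 h, and the median peak time is earlier in every bin.

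Lower genes were also more frequent at high expression. They were 4.28% of the third of genes with the lowest mean, 7.41% of the middle and 19.0% of the highest, and higher genes were 2.42%, 4.81% and 8.26%. The 3 subgenomes hardly differed, with 10.6% lower genes among the A copies, 10.1% among B and 9.98% among D. By chromosome the lower genes ranged from 8.54% on 7B to 12.9% on 6A, and the higher genes from 4.50% on 1B to 5.85% on 4A.

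The median strength of the daily rhythm in senescent leaves hardly differed between the cycles. Rhythmic genes had a median peak-to-trough height of 0.62 on the log2 scale in the first cycle and 0.65 in the second, and the median log2 ratio of the amplitudes was 0.04 (quartiles -0.35 and 0.48), or -0.03 with equal sums of values per library. In the 5718 genes with a height of at least 1 it was 0.00 (quartiles -0.24 and 0.27). The 24 h component as a whole differed between cycles for 966 genes (2.32%), and for 849 of the rhythmic ones (3.23%). The amplitude, measured along the peak time of both cycles together, differed for 226 genes (0.542%), 156 larger (0.374%) and 70 smaller (0.168%). Of these, 137 larger (0.521% of the rhythmic genes) and 57 smaller (0.217%) were rhythmic over both cycles. These genes were chosen by the difference in amplitude, so the heights given next are in part built in by that choice. The 137 rose from a median height of 0.31 to 1.51, and 77 of them peaked from 20 h to 24 h, where 20.3% of all rhythmic genes peaked. The 57 fell from 1.58 to 0.62, and 25 of them peaked from 4 h to 8 h, where 22.3% of all rhythmic genes peaked. These counts depended on single times of day and on having both replicate numbers. Without ZT45 and ZT69 there were 160 calls. Without ZT47 and ZT71 there were 46 calls (28 larger, 18 smaller), and without ZT67 and ZT91 424 (269 larger, 155 smaller). Counts were also lower without ZT51 and ZT75 (132), ZT55 and ZT79 (126), ZT59 and ZT83 (95) or ZT61 and ZT85 (82). All 226 genes kept the sign of the amplitude difference without ZT47 and ZT71. They were chosen by this difference in a fit that shares the remaining libraries, so their signs were largely fixed in advance. In either replicate number alone limma called 0 genes for amplitude, with 3653 at an unadjusted p under 0.05 in number 1 and 3380 in number 2.

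TraesMAC2B03G00862600 on chromosome 2B gained amplitude, with a height of 0.52 in the first cycle and 1.83 in the second. Its libraries ran from 185 through a median of 263 to 440 scaled counts in the first cycle and from 139 through 356 to 619 in the second. The second cycle reached outside the first at both ends, with 7 libraries above and 6 below all of it. In the first cycle its means were high at 3 h (340) and at 17 h (392), with 189 at 9 h between them. The fitted height of 0.52 therefore understates the range of its first cycle. At 21 h its mean went from 253 to 563 and at 13 h from 263 to 166, while at 5 h it was 318 and 320. The change along the peak was 1.35 (SE 0.235, limma adjusted p 0.00879), 1.53 and 1.18 in the 2 replicate numbers. TraesMAC5D03G03126040 on chromosome 5D went from a fitted height of 0.35 to 3.60, a change of 3.38 along the peak (SE 0.602, limma adjusted p 0.00879). Its libraries ran from 16.5 through a median of 108 to 399 in the first cycle and from 28.4 through 171 to 446 in the second. The first cycle thus varied nearly as widely, but not along a 24 h curve, and its fitted height understates its range. Its mean was 37.5 at ZT45 and 333 at ZT69, and 325 at ZT51 and 102 at ZT75, so the highest time point of its first cycle fell at 3 h, when the second cycle was already falling. Without ZT45 and ZT69 both remained called.

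TraesMAC2D03G01291510 on chromosome 2D lost amplitude, from a height of 1.85 to 0.92. Its libraries ran from 152 through 331 to 722 in the first cycle and from 198 through 340 to 521 in the second, so the second cycle lay inside the first. The mean at 7 h went from 710 to 486 and that at 17 h from 174 to 270. The change was -0.93 (SE 0.145, limma adjusted p 0.00181), -0.97 and -0.89 in the replicate numbers, with no call for level (log2 difference -0.04, adjusted p 0.799). TraesMAC3B03G01665220 on chromosome 3B went from a height of 1.11 to 0.30 (change -0.93, SE 0.171, limma adjusted p 0.00879). Its first cycle ran from 152 at 15 h to 436 at 1 h as means, and its second cycle from 218 at 5 h to 332 at 1 h.

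Peaks came earlier in the second cycle on the 24 h day. Over the 26271 rhythmic genes the median shift was -0.71 h (quartiles -1.96 h and 0.62 h), and 65.2% of them peaked earlier. In the genes with a height of at least 1 it was -0.69 h and 71.4%. By peak time, the median shift was largest for peaks from 16 h to 20 h, at -0.97 h, and smallest for peaks from 8 h to 12 h, at -0.49 h. Left out one at a time, the times of day gave medians between -0.76 h and -0.65 h. Over these genes the median was -0.92 h in replicate number 1, with 65% earlier, and -0.51 h in number 2, with 59.4% earlier. The shift depended on the period assumed: with 23 h in place of 24 h the median shift was 0.22 h and 44.7% of genes peaked earlier. The difference at right angles to the peak, which tests the peak time, was called for 671 genes (1.61%), 583 earlier (1.40%) and 88 later (0.211%). With a period of 23 h it was called for 167, 26 earlier and 141 later, the opposite order. No other period was fitted. There were 546 calls without ZT45 and ZT69. Without ZT47 and ZT71 there were 109 calls, 98 earlier and 11 later. There were 421 without ZT51 and ZT75, 447 without ZT55 and ZT79, 289 without ZT59 and ZT83, and 167 without ZT61 and ZT85. All 671 genes kept the sign of the difference without ZT47 and ZT71, which was likewise largely fixed in advance by the shared libraries. In either replicate number alone limma called 0 genes for peak time, with 4458 and 3348 at an unadjusted p under 0.05. Of the genes called, 536 earlier (2.04% of the rhythmic genes) and 57 later ones (0.217%) were rhythmic over both cycles, with median shifts of -2.97 h and 4.61 h. Such shifts are in part built in, since the genes were chosen by the difference in peak time. Of the 536, 231 peaked from 16 h to 20 h, where 23.9% of all rhythmic genes peaked. In level, 174 of the 536 were also lower and 55 higher, against 13.1% and 6.11% of all rhythmic genes.

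TraesMAC4D03G02429150 on chromosome 4D kept its strength and moved its peak from 20.8 h to 18.2 h. Its libraries ran from 117 through 302 to 661 in the first cycle and from 128 through 275 to 658 in the second, nearly the same range. At 1 h the mean went from 407 to 222 and at 11 h from 148 to 244, so both the fall and the rise came earlier. The difference at right angles was -1.28 (SE 0.188, limma adjusted p 0.000521), and the shifts in the replicate numbers were -3.01 h and -2.25 h. TraesMAC2B03G01059560 on chromosome 2B moved from 5.13 h to 0.301 h, a shift of -4.83 h (difference -1.45, SE 0.221, limma adjusted p 0.000575). Its highest mean was 542 at 3 h in the first cycle and 663 at 23 h (ZT71) in the second. Mature libraries were also high at ZT71, at 382 and 389, against 190 and 184 at ZT69 and 230 and 220 at ZT73. They were about as high at ZT85, at 341 and 395.

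Of the genes named for a later peak, TraesMAC4B03G02227170 on chromosome 4B had heights of 0.48 and 0.56 and moved from 6.29 h to 14.1 h (difference 0.88, SE 0.186, limma adjusted p 0.0104). Its rhythm was weak, with a limma adjusted p of 0.0319 for the 24 h component of both cycles together. Its means ran from 123 to 212 in the first cycle and from 96.9 to 194 in the second, so its peak times are poorly defined. TraesMAC6A03G03242090 on chromosome 6A moved from 8.30 h to 11.5 h (difference 0.77, SE 0.167, limma adjusted p 0.0108). Its height also grew, from 0.71 to 1.51, and its level differed by -0.36 on the log2 scale (limma adjusted p 0.000679). The low part of its day was deeper: the means at 3 h were 373 and 175, while those at 11 h were 476 and 526. In its second cycle 9 libraries lay below every library of the first.

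**Figure D4:**
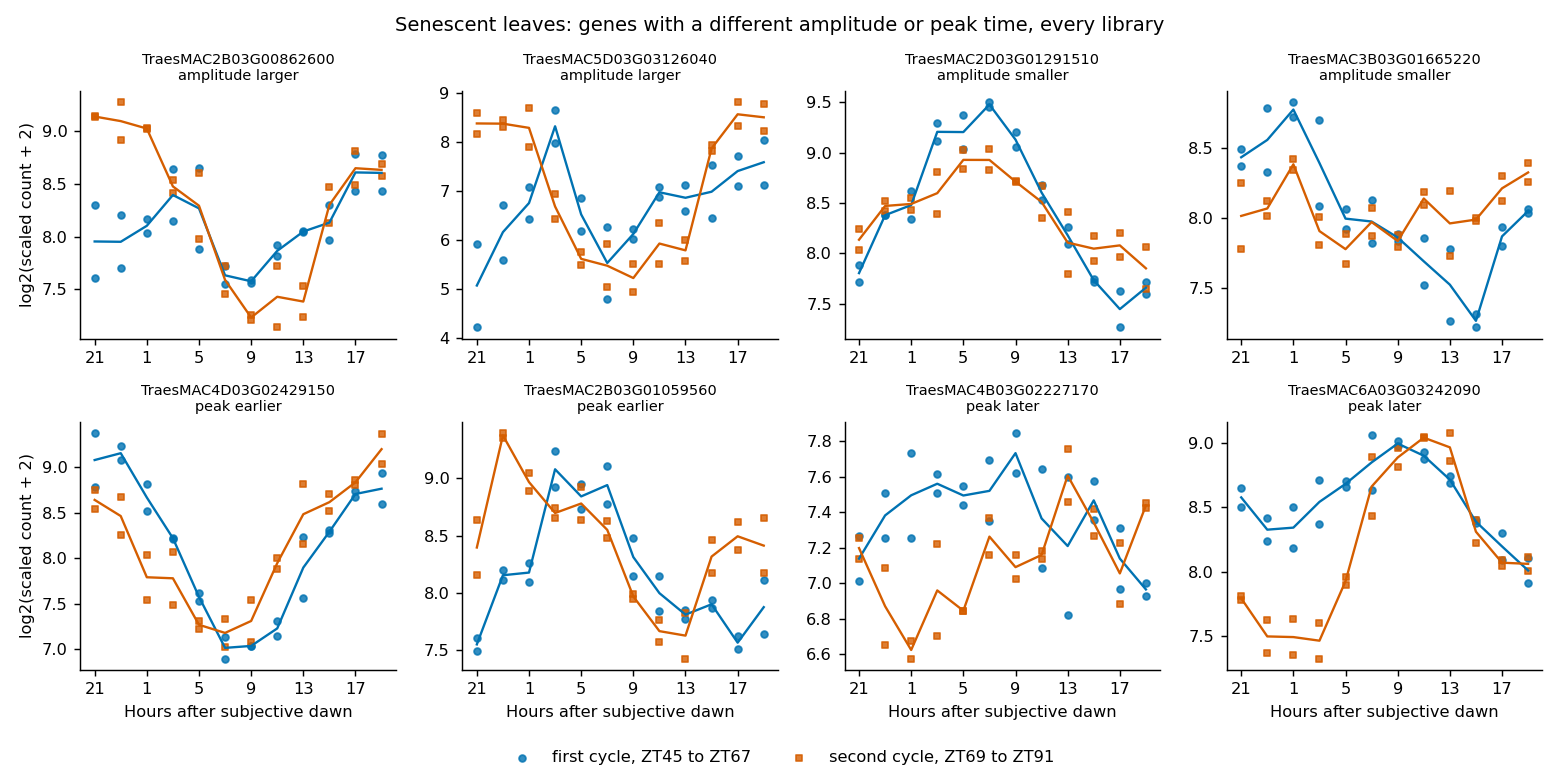
Genes named for amplitude (upper row) and peak time (lower row), as log2(scaled count + 2) in each senescent library against the hours after subjective dawn; lines join the means of the 2 libraries of a time point. TraesMAC4D03G02429150 falls and rises earlier in the second cycle at the same range, and TraesMAC2D03G01291510 has its second cycle inside the first.

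Mature leaves collected at the same times changed in part in the same direction. Of 42218 genes tested in them, 1520 (3.60%) differed between cycles, 922 lower (2.18%) and 598 higher (1.42%). The lists of the stages, which share no library, had 394 lower genes in common (9.24% of the senescent and 42.7% of the mature list) and 201 higher genes (9.33% and 33.6%). In opposite directions, 2 genes were higher in senescent and lower in mature leaves and 1 the reverse. Of the 4263 lower genes of senescent leaves, 76.1% had a negative difference in mature leaves (median -0.09), and of the 2154 higher genes 79.3% a positive one (median 0.12), against 49.1% positive over all genes. For the 4 genes named for level, the mature difference had the same sign, at 0.84, 1.91, -1.38 and -0.34 in the order given above. The difference between stages passed the test for TraesMAC2A03G00597180 (limma adjusted p 0.0299) and missed it for the other 3 (adjusted p 0.137 to 0.645).

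Over all 96 libraries the difference between cycles itself differed between stages for 286 of 42428 genes (0.674%), 234 more negative (0.552%) and 52 more positive (0.123%) in senescent leaves. As a description of genes chosen by this difference, the median of the 234 was -0.52 in senescent and 0.11 in mature leaves, with opposite signs for 69.7%. The median of the 52 was 0.21 and -0.37, with opposite signs for 84.6%, against 38.6% over all genes tested. This count rested on few times of day: it was 8 without ZT47 and ZT71, 11 without ZT53 and ZT77, 32 without ZT49 and ZT73, 33 without ZT51 and ZT75, 74 without ZT65 and ZT89, and 89 without ZT63 and ZT87. It rose to 478 without ZT55 and ZT79, 529 without ZT59 and ZT83, and 886 without ZT67 and ZT91. With the 5 early times of day alone it was 5719 of the same 42428 genes, 3425 more negative and 2294 more positive, and without them 1. Those times of day were chosen after the counts of calls were seen, so both numbers are in part built in by that choice. In either replicate number alone limma called 0 genes, with 2946 at an unadjusted p under 0.05 in number 1 and 2945 in number 2.

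TraesMAC6A03G03410340 on chromosome 6A ran from 165 through a median of 257 to 315 scaled counts in the first senescent cycle and from 60.4 through 157 to 241 in the second. In the second cycle 13 libraries lay below all of the first. In mature leaves it ran from 95.3 through 362 to 955 and from 301 through 441 to 715, where the ranges overlapped widely. The log2 differences were -0.70 in senescent and 0.27 in mature leaves, and they differed by -0.96 (SE 0.178, limma adjusted p 0.00530). TraesMAC1D03G00564730 on chromosome 1D had medians of 59.1 and 20.6 in senescent leaves and of 152 and 165 in mature leaves. Its differences were -1.17 and 0.00, apart by -1.18 (SE 0.222, limma adjusted p 0.00724), and without ZT53 and ZT77 its adjusted p was 0.0672.

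TraesMAC7A03G03932770 on chromosome 7A went the other way. It ran from 21.3 through a median of 54.4 to 103 in the first senescent cycle and from 34.0 through 102 to 233 in the second, with 11 libraries above all of the first. In mature leaves its medians were 51.7 and 52.5. The differences of 0.81 and -0.08 were apart by 0.89 (SE 0.188, limma adjusted p 0.0148). TraesMAC4A03G02113860 on chromosome 4A had medians of 68.1 and 82.4 in senescent leaves and of 68.0 and 58.9 in mature leaves, with differences of 0.24 and -0.20 (apart by 0.44, SE 0.0907, limma adjusted p 0.0142). Neither was called without ZT47 and ZT71 (adjusted p 0.117 and 0.0861) or without ZT53 and ZT77 (0.0763 and 0.0503), nor was the latter without ZT49 and ZT73 (0.0528) or ZT65 and ZT89 (0.0653).

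**Figure D5:**
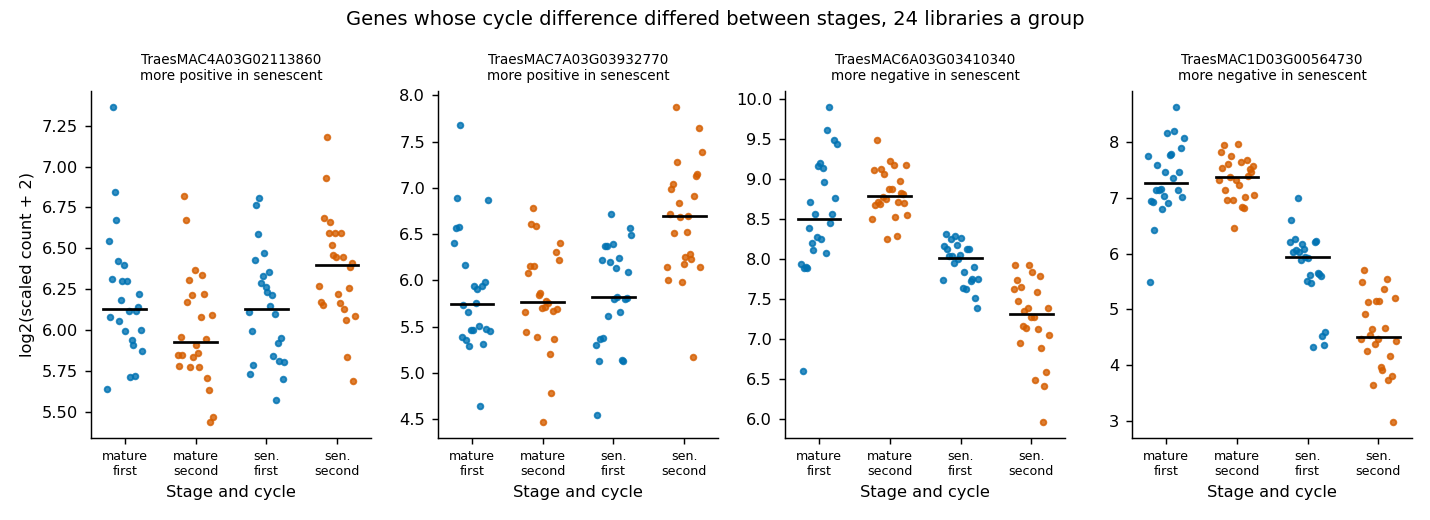
The 4 genes named for the difference between stages, as log2(scaled count + 2) in each of the 24 libraries of a stage and cycle, in order of time from left to right within a group; black lines are medians. The second senescent cycle of TraesMAC6A03G03410340 has a median of 157 scaled counts against 257 in the first, and the mature medians are 362 and 441.

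The amplitude changed differently in the stages, a test added after the results of each stage were seen. In mature leaves 1296 genes had a smaller amplitude in the second cycle (3.07%) and 117 a larger one (0.277%), and the median log2 ratio over their 22820 rhythmic genes was -0.24. In 1 fit to all libraries, the change of amplitude between cycles differed between stages for 718 of 42428 genes (1.69%), 689 more positive (1.62%) and 29 more negative (0.0684%) in senescent leaves. As a description of genes chosen by this difference, the 689 had a median change of 0.42 in senescent leaves and of -1.01 in mature leaves. Over all genes tested the medians were 0.02 and -0.1. Among 17381 genes with a rhythm in each stage, the median change of the height was 0.00 in senescent and -0.12 in mature leaves. Of the genes with a smaller amplitude in mature leaves and a test in senescent leaves, 643 of 1252 (51.4%) had a smaller one there too, against 47.5% of all 39951 genes tested in each stage, and of those with a larger amplitude in mature leaves 84 of 113 (74.3%) had a larger one. Of the genes with a smaller amplitude in senescent leaves, 65 of 70 (92.9%) had a smaller one in mature leaves, against 60.4% of all, and of those with a larger one 32 of 152 (21.1%) had a larger one. The count was 149 without ZT47 and ZT71, 369 without ZT45 and ZT69, 420 without ZT55 and ZT79, 425 without ZT59 and ZT83, and 428 without ZT53 and ZT77, and the more positive genes were the larger number in each of these. It was 6 in replicate number 1 alone and 5 in number 2 alone. Peak times moved less in mature leaves, with a median of -0.23 h and 43 genes called earlier (0.102%) and 30 later (0.0711%). The change of the peak time differed between stages for 138 genes (0.325%), and for 7 without ZT47 and ZT71.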

How the data were processed

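RNA-seq of 96 wheat flag leaf libraries was used, 48 of them senescent. Per the submitters' processing notes, the tools were bcl2fastq 2.17, STAR, Cufflinks and Cuffnorm, with no roles stated; genome build and strand setting are not given in the sources used here. The values in the deposited count tables are signal values: the authors' read counts after scaling by library, since at least 99.97% of values under 50 were whole multiples of 1 number per library, to within 0.01 of a multiple. That number turns the summed values into estimated reads. FPKM values as deposited, scaled by the authors for gene length and library size, were read for the named genes only and are not printed.

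The count test of the design was not run, because the values are scaled and whole reads could not be recovered for every value. Values were tested as log2(scaled count + 2) with limma 3.58.1 in R 4.3.3 (variance trend over the mean) for genes whose scaled counts averaged at least 10, and a Benjamini-Hochberg adjusted p under 0.05 over all genes tested was called. Fold changes on this scale understate those of low genes. The level fit had cycle and 12 times of day; the rhythm fit had a 24 h cosine and sine per cycle, and its difference between cycles was split into the part along the peak of both cycles together (amplitude, given as peak-to-trough height) and the part at right angles (peak time). The stage tests used all libraries, and the one for amplitude was added after seeing the data. The exact sign-flip test was two-sided over the 12 time-of-day differences. Tests were checked on simulated data. At most 2 genes per direction and comparison are named, those with the smallest p among genes whose scaled counts averaged at least 50 (for level, also with the same sign in replicate numbers 1 and 2 and an absolute log2 difference of at least 1; for amplitude and peak time, also rhythmic and of the same sign). Members, rules and lists were chosen with earlier results of these data known. Alternatives changed the pseudocount, the filter, the scaling, the replicate numbers, the times of day and the period. The replicate numbers mark no shared leaf, and the deviations of the same number in the 2 cycles had a correlation of 0.0126 across genes, so they were not used as pairs.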

Additional observations from a re-analysis of the deposited data

Results flagged for a closer look

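The difference between cycles differed between senescent and mature leaves, by the limma test of that difference over all 96 libraries, for 286 of 42428 genes (0.674%). The count was 8 without ZT47 and ZT71, and 0 in either replicate number alone. The 4 genes named from this list stood apart by 0.44 (TraesMAC4A03G02113860), 0.89 (TraesMAC7A03G03932770), -0.96 (TraesMAC6A03G03410340) and -1.18 (TraesMAC1D03G00564730) on the log2 scale, senescent minus mature. The change of amplitude between cycles, a test added after the results of each stage were seen, differed between the stages for 718 genes (1.69%). That count was 149 without ZT47 and ZT71, 6 in replicate number 1 alone and 5 in number 2 alone. Stage and sowing batch cannot be told apart in these counts.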

How the results depend on the processing

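With the replicate block the level count was 6329 (2114 higher, 4215 lower), the 24 h component gave 943, amplitude 211, peak time 648, cycle by time of day 1281 and stage by cycle 258, and no call of a gene named for level, amplitude, peak time or stage changed. The 4 genes named for level were called under every alternative except TraesMAC4A03G02217310 without the times of day from ZT45 to ZT53. The genes named for amplitude, peak time and stage kept their sign under all alternatives run, and none of them was called in either replicate number alone. No alternative reversed a named gene. The causes of the movements below were not tested, except that leaving out samples leaves fewer libraries and dropping the filter tests more genes.

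With no filter on low values, the 24 h component gave 463 genes, amplitude 102 (73 larger, 29 smaller), peak time 279 (243 earlier, 36 later), cycle by time of day 663, stage by cycle 74 (57 more negative, 17 more positive), amplitude by stage 431 (413 more positive, 18 more negative) and peak time by stage 41. With libraries scaled to an equal sum, 2758 genes were lower and 6619 higher, with -0.0272 as the median amplitude ratio. Means of the 2 libraries of a time point gave 3557 (919 higher, 2638 lower), and a minimum log2 difference of 1 gave 76 (20 higher, 56 lower). A period of 23 h gave 481 for the 24 h component, 167 for peak time (26 earlier, 141 later), a median shift of 0.222 h, which turned its sign, and 34 for peak time by stage. A linear term over time gave 1510 for the 24 h component, 373 for amplitude and 296 larger when added, and 361 and 282 in place of the cycle. The 5 early times of day, chosen after the counts by time of day were seen, alone gave 5719 for stage by cycle (3425 more negative, 2294 more positive). Without them the level count was 903 (198 higher, 705 lower) and stage by cycle 1 (1 more negative, 0 more positive).

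Leaving out a replicate number or 1 time of day with its partner moved the level count from 1017 to 6865 (higher 185 to 2371, lower 832 to 4539), the 24 h component from 0 to 1548, amplitude from 0 to 424 (larger 0 to 269, smaller 0 to 155), peak time from 0 to 948 (earlier 0 to 811, later 0 to 137), stage by cycle from 0 to 886 (more negative 0 to 721, more positive 0 to 165), amplitude by stage from 5 to 1024 (more positive 5 to 967, more negative 0 to 57) and peak time by stage from 0 to 361. Leaving out 1 time of day moved cycle by time of day from 957 to 1470. The lowest values of the rhythm and stage counts are those of a single replicate number, with 12 libraries a cycle.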
